A study of Mus musculus with 18 samples.

Results

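Genes of the two-cell stage, 10 of the 35773 genes in the count tables, were followed through 6 mouse stem cell types: *Tmem92*, *Zfp352*, *Tcstv1*, *Tcstv3*, *D13Ertd608e*, and the deubiquitinase genes *Usp17la*, *Usp17lb*, *Usp17lc*, *Usp17ld* and *Usp17le*. They were chosen by name, with their levels in these samples already known, so their levels are given here as a description without a test. Polyadenylated RNA was sequenced from 3 samples of each cell type. Advanced pluripotent stem cells (ASCs) had been derived from AFSCs in ABCL medium, which is N2B27 with activin A, BMP4, the GSK3 inhibitor CHIR99021 and LIF. AFSCs had been derived from blastocysts in N2B27 with activin A and bFGF. ESCs were kept in 2i/LIF, ESC-ASCs were ESCs moved into ABCL medium, and epiblast-like cells (EpiLCs) and epiblast stem cells (EpiSCs) completed the set. The labels give strain 129S2/SvPasCrl and a wild type genotype for all groups, whereas the study's methods describe blastocysts from a cross with males of mixed background that carried a reporter transgene, and ASC colonies that were picked for reporter fluorescence (GOF-GFP). The study calls the samples of its transcriptome clustering biological replicates. How many lines stand behind the 3 samples of a group was not given in the sources used here. The p-values therefore measure the spread between these samples, which may be cultures of a single line.

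In the mouse embryo, the zygotic genome is switched on in earnest at the two-cell stage, when a burst of transcripts from retrotransposon-linked and multicopy genes appears and is then shut off again. The transcription factor Dux, the *Zscan4* cluster, the *Tcstv* genes and *Usp17l* genes are known parts of this burst. A small, changing share of cells in ESC cultures enters a similar state for a short time. *Zfp352* encodes a zinc finger protein, *Tmem92* a transmembrane protein, the *Tcstv* genes small proteins known from two-cell embryos, and the *Usp17l* genes deubiquitinating enzymes.

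All 10 genes were highest in ASCs, and in each of them the 3 ASC samples lay above all 15 other samples. Over all 16901 genes with enough counts to be tested, 5.49% had ASCs above every other sample, a share that is printed as background only because the genes were chosen for this pattern. ESC-ASCs came next in mean level for 9 of the 10 genes, with EpiLCs below or level with them. ESCs held 0 to 4 counts of a gene per sample, AFSCs 0 to 3 and EpiSCs 0 to 1. In bulk RNA, fewer cells with these transcripts and less of the transcript per cell cannot be told apart.

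Total counts ranged from 4961934 to 9906473 in the samples other than ESC-ASCs and from 17813619 to 18071600 in ESC-ASCs, so depth coincides with cell type there. No pair of replicates was alike within sampling noise. Replicate 1 stood apart from the other 2 in ASCs (chi-square per degree of freedom over genes of 34.6 and 30.1, against 3.40 between the other 2), AFSCs (92.1 and 85.0, against 11.0), EpiLCs (22.9 and 19.6, against 2.18) and ESCs (34.3 and 33.5, against 1.61). With any 1 of these samples left out, all 10 genes still had every ASC sample above every other sample. Pluripotency markers had at least 10 counts in every ASC, ESC-ASC, EpiLC and ESC sample for 6 of 6 genes and for 5 of 6 in AFSCs and EpiSCs. The summed level of 6 naive markers was 3264 to 4044 normalized counts per kb in ASCs, 2513 to 2764 in ESC-ASCs and 4415 to 4724 in ESCs, against 23.9 to 119 in EpiLCs, AFSCs and EpiSCs, and that of 6 primed markers was highest in EpiSCs (2944 to 3164). Markers of other cells moved with the groups as well. The summed level of 8 fibroblast (feeder) markers was 75.7 to 118 normalized counts per kb in ASCs, 50.8 to 60.7 in ESC-ASCs, 112 to 127 in EpiLCs, 41.8 to 101 in ESCs, 39.6 to 54.8 in AFSCs and 17.3 to 20.7 in EpiSCs, with *Col3a1*, *Postn* and *Lum* at 0 in ESC-ASCs and *Dcn* and *Lum* at 0 in EpiSCs. Its members went different ways: the mean of *Thy1* was 34.7 in ASCs and 53.4 in ESC-ASCs, whereas the collagen genes *Col1a1* (56.4 against 1.16), *Col1a2* (2.44 against 0.145) and *Col3a1* (0.586 against 0) were higher in ASCs (edgeR, adjusted p = 2.50e-08, 9.38e-06 and 2.35e-03). In ESCs *Col1a1* (22.4) and *Thy1* (6.62) were below their ASC means, whereas *Col1a2* (6.68), *Col3a1* (11.2) and *Dcn* (14.5) were above them. *Dcn* was highest in EpiLCs at 64.6, against 0.173 in ASCs and 0.161 in ESC-ASCs. The sum of 7 trophoblast markers was 248 to 309 in ASCs, 287 to 310 in ESC-ASCs and 375 to 389 in ESCs, against 31.3 to 45.9 in the other groups. The largest member of the sum in ASCs, ESC-ASCs and ESCs was *Tfap2c*, at 190, 145 and 271, against 11.9 to 15.9 in the other groups. Within the sum, *Cdx2* was higher in ASCs than in ESC-ASCs (51.1 against 0.368, log2 6.92 ± 0.44), with 94.9 in ESCs, and *Krt7* (-2.88 ± 0.27) and *Ascl2* (-1.75 ± 0.25) were lower. Among these markers *Prl3d1* was at 0 in all groups but ESCs, *Tpbpa* in ESCs and ESC-ASCs, and *Elf5* in ESC-ASCs. None of these had more than 5 counts in any sample. The sum of 6 primitive endoderm markers was 18.4 to 25.1 in ASCs, 9.58 to 20.8 in ESC-ASCs, EpiLCs, ESCs and AFSCs, and 70.2 to 71.5 in EpiSCs. The part of such cells in the results was not tested.

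The genes lie at 4 places of the GRCm38 genome. *Tmem92* spans chr11:94777217-94782703 on the minus strand and *Zfp352* chr4:90218820-90225702 on the plus strand. *D13Ertd608e* (chr13:119836006-119846570, plus), *Tcstv1* (chr13:119893388-119894785, minus) and *Tcstv3* (chr13:120317567-120318076, plus) lie within 0.482 Mb of chromosome 13. The *Usp17l* copies lie within 1.61 Mb of chromosome 7, among olfactory receptor genes: *Usp17ld* (chr7:103249737-103252505, minus), *Usp17lc* (chr7:103415072-103419880, plus), *Usp17le* (chr7:104768049-104777470, minus), *Usp17lb* (chr7:104840257-104842603, minus) and *Usp17la* (chr7:104857009-104862667, plus).

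These families consist of near copies, and the counting gave a fragment that maps to several places to each of them, so the sequences are shown first. The coding sequences of the 5 *Usp17l* genes, taken from GENCODE transcripts, were 90.7% to 98.4% identical over the aligned bases, and *Usp17lc* and *Usp17ld* were the closest pair. The first 60 coding bases follow, with capitals where a copy differs from the base that most of the 5 copies have.
Usp17la: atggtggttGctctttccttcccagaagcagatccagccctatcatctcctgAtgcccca
Usp17lb: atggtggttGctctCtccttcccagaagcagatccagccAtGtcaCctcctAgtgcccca
Usp17lc: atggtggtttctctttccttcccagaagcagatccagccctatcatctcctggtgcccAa
Usp17ld: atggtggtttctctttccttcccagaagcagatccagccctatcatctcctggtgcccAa
Usp17le: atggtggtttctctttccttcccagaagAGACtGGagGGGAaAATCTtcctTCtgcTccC
*Usp17lc* and *Usp17ld* were the same over this stretch. *Usp17le* matched the common sequence over its first 28 bases and differed from it at 19 of the later bases.

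*Tcstv1* and *Tcstv3* were 94.7% identical over 507 coding bases, and *D13Ertd608e* was identical to *Tcstv1* at 369 and to *Tcstv3* at 376 of 453 bases. Their first 60 coding bases show that *D13Ertd608e* belongs to the same family. Capitals mark where one differs from the other two.
Tcstv1: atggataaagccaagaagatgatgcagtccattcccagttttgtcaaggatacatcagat
Tcstv3: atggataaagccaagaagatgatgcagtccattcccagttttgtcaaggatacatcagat
D13Ertd608e: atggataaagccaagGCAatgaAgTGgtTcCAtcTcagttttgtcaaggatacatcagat
Over these bases *Tcstv1* and *Tcstv3* cannot be told apart by a read, and *D13Ertd608e* differs from them at 10 positions.

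Shared stretches were measured as the share of all 50-base words of a gene's annotated transcripts that also occur in the transcripts of another gene, on either strand. *Tmem92* and *Zfp352* shared no word with the other 9 genes, and 1.93% and 7.10% of their words with genes outside the set. *Usp17ld* shared 50.4% of its words with *Usp17lc*, and *Usp17lc* 41.5% of its words with *Usp17ld*. *Usp17la*, *Usp17lb* and *Usp17le* shared 15.3%, 20.1% and 24.4% of their words with the other genes of the set. *Tcstv3* shared 17.9% with *Tcstv1* and 19.0% with the copy *Gm21818*. *D13Ertd608e* shared 89.6% of its words with *Gm21762*, an annotated copy on chromosome 13 (chr13:120214758-120215213). The counts of *Gm21762* were 11, 20 and 8 in ASCs, 5, 3 and 2 in ESC-ASCs and at most 1 in the other samples, and those of *Gm21818* were 62, 51 and 55 in ASCs, 10, 16 and 13 in ESC-ASCs and at most 9 in the other samples. Both copies were chosen after their values were seen. Values of single *Usp17l* and *Tcstv* genes therefore overlap in part and are uncertain as values of 1 copy, and the sum over a family counts some fragments more than once.

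**Figure D1:**
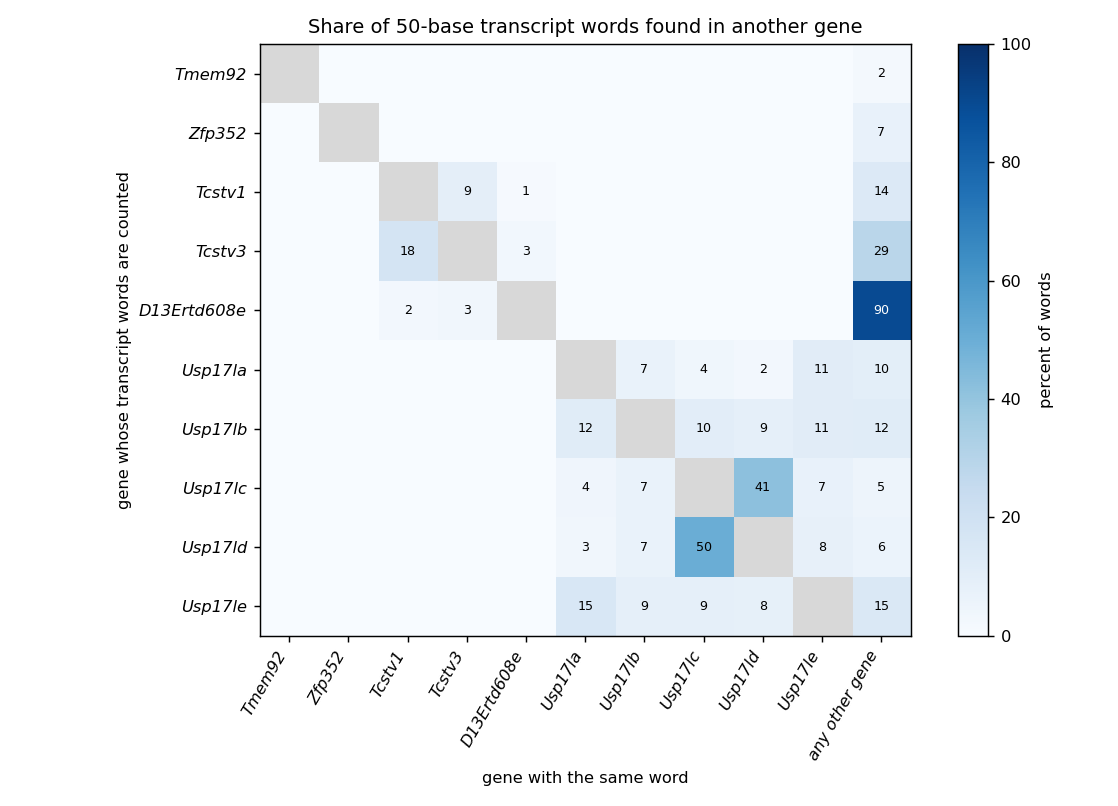
Percent of the 50-base words of each gene's transcripts (rows) that occur in the transcripts of another of the 10 genes or in any other gene (columns). Sharing lies within the Tcstv and Usp17l blocks, with 50.4% from Usp17ld to Usp17lc, and 89.6% of D13Ertd608e words occur in other genes; the grey diagonal is a gene with itself.

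RefSeq upstream sequences were at hand for 5 of the 10 genes. They are shown because the *Usp17l* copies moved together. Their 250 bases before the RefSeq start were 86.5% to 97.3% identical over the aligned bases in the 6 pairs of the 4 copies, and all 4 held one run of 29 bases in common, which occurred in 4 of 32851 upstream windows of the table (0.0122%, counting both strands), those of the 4 copies themselves. The stretches that begin with this run are printed here (GRCm38.p6, each 5′ to 3′ on the strand of its gene), with capitals where a copy does not share the base of most copies or where no base is in the majority.
Usp17la, chr7:104856875-104856979, plus: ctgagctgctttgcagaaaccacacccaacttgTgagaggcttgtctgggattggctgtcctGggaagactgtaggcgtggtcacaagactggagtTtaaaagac
Usp17lb, chr7:104842605-104842709, minus: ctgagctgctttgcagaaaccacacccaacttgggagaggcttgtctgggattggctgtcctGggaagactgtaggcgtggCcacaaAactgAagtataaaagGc
Usp17lc, chr7:103416513-103416617, plus: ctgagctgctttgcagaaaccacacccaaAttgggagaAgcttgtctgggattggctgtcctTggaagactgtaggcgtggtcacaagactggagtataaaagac
Usp17ld, chr7:103252606-103252710, minus: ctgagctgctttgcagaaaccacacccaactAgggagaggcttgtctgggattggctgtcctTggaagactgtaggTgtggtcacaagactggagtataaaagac
For *Usp17lc* the RefSeq start lies inside the span given above from the count tables, so its stretch is upstream of the RefSeq start but inside that span. The 4 stretches differ at 3 to 5 positions each by this marking. The letters TATAAA, the core of a TATA box, stood in the windows of *Usp17lb*, *Usp17lc* and *Usp17ld* and in 12.4% of all windows.

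The window of *Zfp352* looked different. It held 6 exact copies of a 16-base unit in a row of similar units, marked in capitals (chr4:90218570-90218819, plus strand).
Zfp352: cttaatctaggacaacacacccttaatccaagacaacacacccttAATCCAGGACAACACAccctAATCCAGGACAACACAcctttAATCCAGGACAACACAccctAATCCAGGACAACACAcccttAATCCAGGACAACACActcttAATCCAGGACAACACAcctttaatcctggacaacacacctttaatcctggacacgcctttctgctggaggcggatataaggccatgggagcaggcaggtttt
This unit occurred in no other window of the table.

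*Tmem92* had 125, 88 and 89 counts in the 3 ASC samples, 15, 11 and 10 in ESC-ASCs, 3, 2 and 4 in EpiLCs and 0 in all 9 samples of ESCs, AFSCs and EpiSCs. Divided by depth and exonic length, its level was 49.4 ± 10.8 (SD, n = 3) normalized counts per kb in ASCs, 2.74 ± 0.634 in ESC-ASCs and 1.45 ± 0.586 in EpiLCs. No ASC sample overlapped with another group, and ESC-ASCs lay above EpiLCs without overlap. With the counts of a group summed, ASCs were 18.01 times above ESC-ASCs (95% counting interval 12.7 to 26.2) and 35.1 times above EpiLCs (18.2 to 77.5). Against ESCs they were at least 81.3-fold higher, taking 3 counts over the group as the most that a count of 0 allows. These intervals and floors cover counting error only.

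*Zfp352* had fewer counts, 33, 33 and 30 in ASCs, 4, 6 and 6 in ESC-ASCs, 1, 4 and 2 in EpiLCs, 0, 0 and 1 in ESCs and 0 in AFSCs and EpiSCs. Its level was 15.1 ± 0.593 normalized counts per kb in ASCs (SD, n = 3), the lowest of the 10 genes, 1.17 ± 0.242 in ESC-ASCs and 1.001 ± 0.526 in EpiLCs. The ESC-ASC and EpiLC samples overlapped. ASCs were 12.9 times above ESC-ASCs (7.54 to 23.4).

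The *Tcstv* genes differed among themselves, relative to their levels, more in ESC-ASCs than in ASCs. *Tcstv1* had 82, 81 and 56 counts in ASCs, 21, 21 and 16 in ESC-ASCs, 5, 4 and 4 in EpiLCs, 1 in each ESC sample and 0 in AFSCs and EpiSCs. *Tcstv3* had 39, 33 and 32 counts in ASCs but 3, 1 and 2 in ESC-ASCs, 2, 1 and 3 in EpiLCs and 0 elsewhere. *D13Ertd608e* had 33, 38 and 38 in ASCs, 10, 10 and 6 in ESC-ASCs, 1 count in 1 EpiLC sample and in 1 ESC sample, and 0 elsewhere.
In level, *Tcstv3* was the highest of the 10 genes in ASCs at 72.8 ± 8.41 normalized counts per kb (SD, n = 3), on an annotated length of 0.51 kb that is the shortest of the 10. *Tcstv1* and *D13Ertd608e* were at 55.8 ± 10.4 and 53.7 ± 4.25. In ESC-ASCs *Tcstv3* was the lowest of the 3 at 1.97 ± 1.01, with *Tcstv1* at 6.90 ± 0.997 and *D13Ertd608e* at 5.97 ± 1.56. The ratio of ASCs to ESC-ASCs was accordingly 37.2 for *Tcstv3* (16.5 to 104), 8.11 for *Tcstv1* (6.04 to 11.0) and 9.0 for *D13Ertd608e* (5.82 to 14.4), and the counting interval of *Tcstv3* did not overlap with those of the other two. *Tcstv3* was also the 1 gene of the 10 whose mean was higher in EpiLCs (4.19 ± 2.30) than in ESC-ASCs, though the samples of both groups overlapped.

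In each of the 5 *Usp17l* copies the mean level was highest in ASCs, followed by ESC-ASCs and EpiLCs. *Usp17lc* had 114, 117 and 135 counts in ASCs, 37, 36 and 48 in ESC-ASCs, 7, 3 and 9 in EpiLCs, 1, 4 and 0 in ESCs, 1 in 1 AFSC sample and 0 in EpiSCs. *Usp17ld*, with which it shares the most sequence, had 66, 67 and 68 in ASCs, 18, 20 and 20 in ESC-ASCs, 4, 3 and 3 in EpiLCs and 0 in all 9 other samples. In both genes ESC-ASCs lay above EpiLCs without overlap.
*Usp17le* had 115, 107 and 99 counts in ASCs, 45, 21 and 19 in ESC-ASCs, 6, 8 and 8 in EpiLCs, 2, 3 and 3 in ESCs, 2, 2 and 3 in AFSCs and 0, 0 and 1 in EpiSCs. It was the copy with counts in every AFSC and every ESC sample, and 1 ESC-ASC sample was 2.38 times above the lowest in level.
*Usp17la* had 62, 44 and 35 counts in ASCs, 8, 8 and 10 in ESC-ASCs, 0, 9 and 3 in EpiLCs, 1, 1 and 0 in ESCs, 1 in each AFSC sample and 0, 0 and 1 in EpiSCs. *Usp17lb* had 44, 64 and 53 in ASCs, 16, 13 and 11 in ESC-ASCs, 8, 6 and 2 in EpiLCs, 0, 3 and 1 in ESCs and 0 in AFSCs and EpiSCs. In these copies the ESC-ASC and EpiLC samples overlapped.

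In ASCs the levels of the copies per kb were 57.7 ± 4.18 for *Usp17le*, 53.3 ± 6.09 for *Usp17lc*, 36.7 ± 6.10 for *Usp17lb*, 36.1 ± 1.29 for *Usp17ld* and 18.9 ± 5.58 for *Usp17la* (SD, n = 3). *Usp17le* and *Usp17lc* differed by less than their spread, as did *Usp17lb* and *Usp17ld*. The ratio of ASCs to ESC-ASCs was 6.49 for *Usp17lc* (5.27 to 8.04), the smallest of the 10 genes, 7.44 for *Usp17ld*, 8.11 for *Usp17le*, 8.64 for *Usp17lb* and 11.6 for *Usp17la* (7.62 to 18.4). The interval of *Usp17lc* lay below that of *Tmem92* (12.7 to 26.2), while the intervals of the 5 copies overlapped.
Summed over the 5 copies, which counts shared fragments more than once, the normalized counts were 433, 414 and 428 in ASCs, 62.7, 47.9 and 54.3 in ESC-ASCs, 28.9, 25.7 and 26.8 in EpiLCs, 7.88, 12.8 and 4.46 in ESCs, 4.04, 3.47 and 5.18 in AFSCs and 0, 0 and 1.91 in EpiSCs. The groups from ASCs down to EpiLCs did not overlap in this sum. ESC-ASCs thus held 12.9% of the ASC sum for the *Usp17l* genes, against 9.71% for the 3 *Tcstv* genes, 7.75% for *Zfp352* and 5.55% for *Tmem92*.

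**Figure D2:**
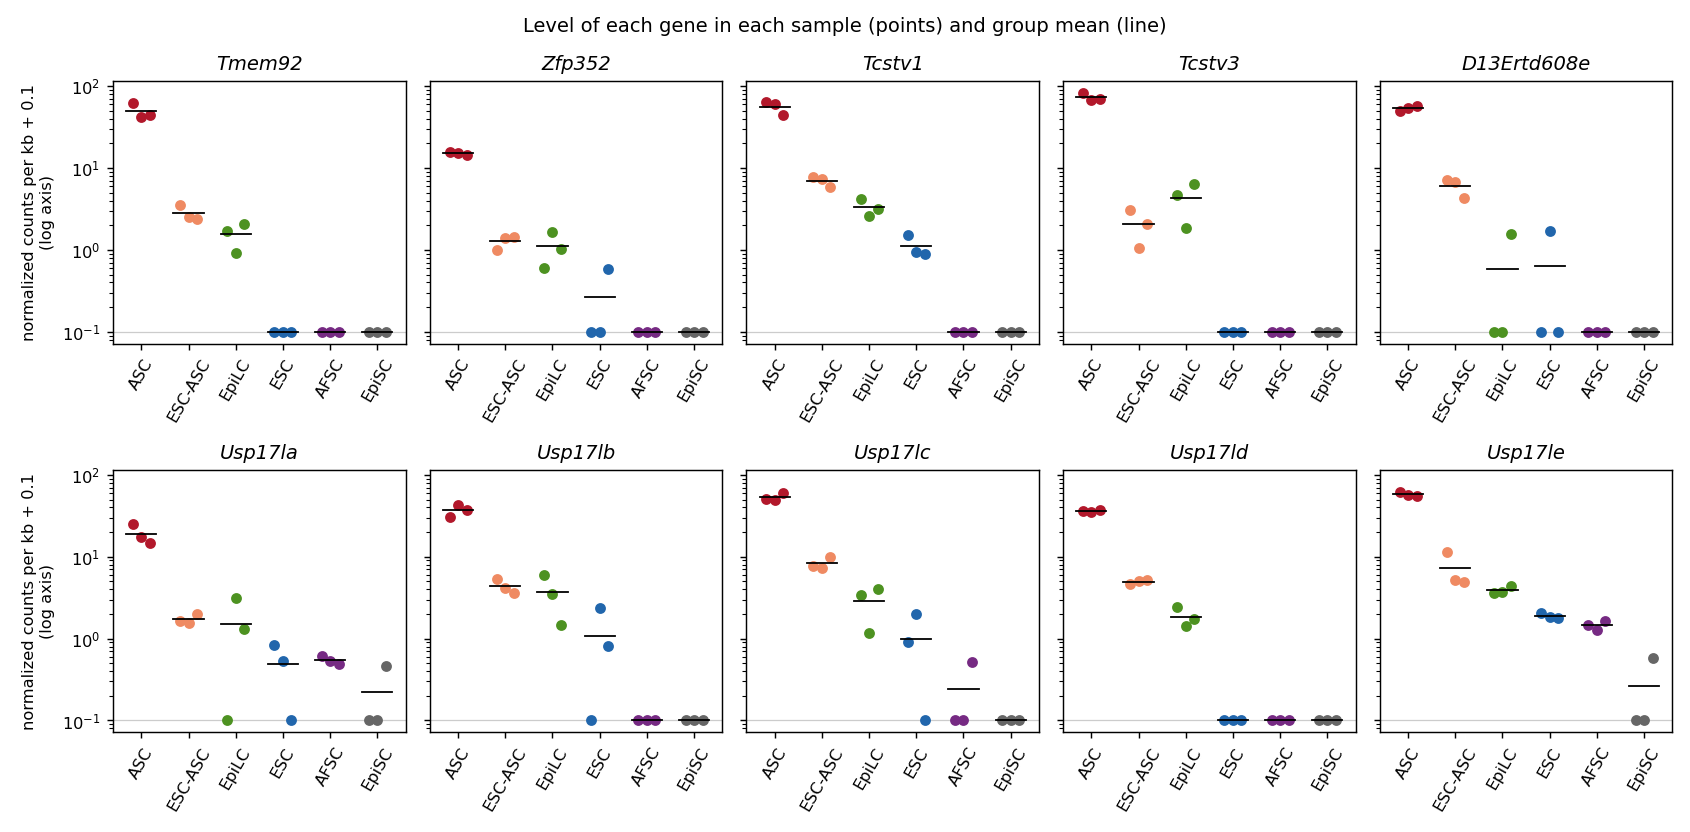
Level of each of the 10 genes (normalized counts per kb plus 0.1, log axis) in each of the 18 samples (points) with the group mean (line); points on the grey line at 0.1 are samples without a count. In every panel the 3 ASC points lie above all others, and ESC-ASC and EpiLC points lie between ASCs and the groups near 0.

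Across the 10 genes the ratio of ASCs to ESC-ASCs was between 6.49 and 37.2 with a median of 8.82, and the ratio of ASCs to EpiLCs between 10.5 and 114, the latter resting on 1 EpiLC count of *D13Ertd608e* (20.04 to 4544). The 7 genes with a count in ESCs had ratios of ASCs to ESCs between 32.4 and 88.1. The highest, for *D13Ertd608e* (15.5 to 3510), and that of *Zfp352*, 77.6 (13.6 to 3095), rest on 1 ESC count each. *Tmem92*, *Tcstv3* and *Usp17ld* had no count in ESCs, and for *Usp17ld* ASCs were at least 54.1-fold higher. ASCs had been derived from AFSCs. For *Usp17le*, which had 7 counts over the 3 AFSC samples, ASCs were 42.1 times higher (20.2 to 106), and for *Tmem92*, at 0 in AFSCs, at least 92.4-fold higher.

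**Figure D3:**
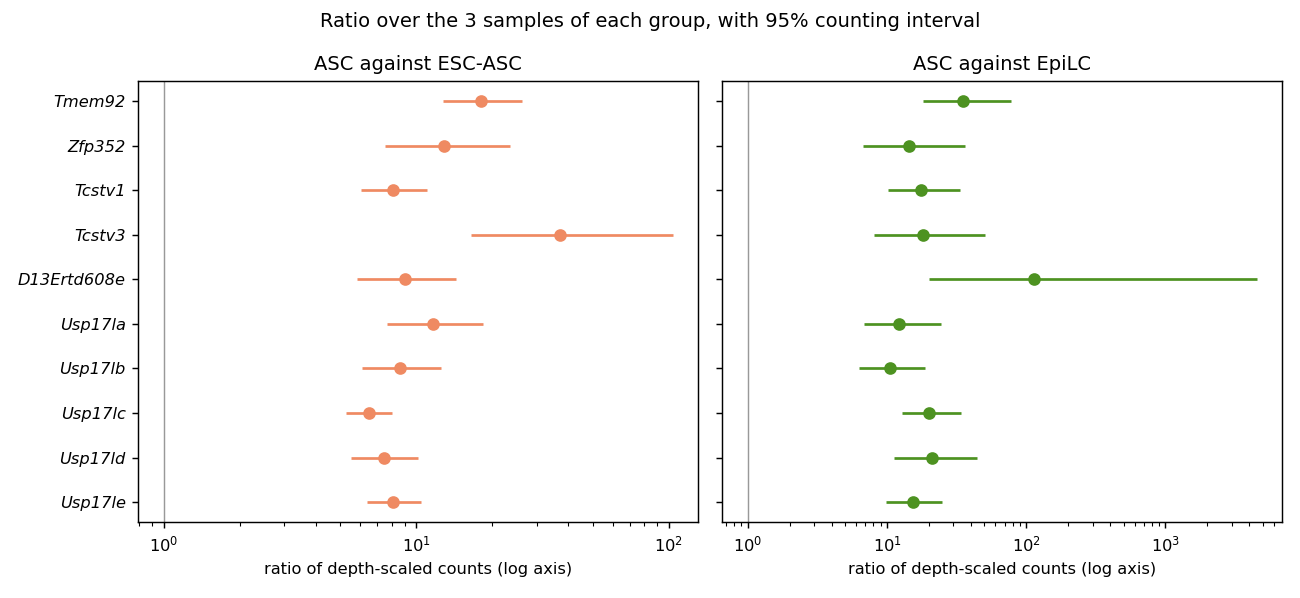
Ratio of ASCs to ESC-ASCs (left) and to EpiLCs (right) for each of the 10 genes, from counts summed over the 3 samples of a group and scaled for depth, with 95% counting intervals (log axes). The genes were chosen with these levels known, so intervals above 1 are no test. The intervals cover counting error only and leave out the spread between samples. Tcstv3 at 37.2 stands highest on the left, and the interval of D13Ertd608e on the right, 20.04 to 4544, rests on 1 count.

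ESC-ASCs had been ESCs before the change of medium, and in all 10 genes the 3 ESC-ASC samples lay above the 3 ESC samples, an order that 37.0% of all genes tested showed. The ratio was 9.11 for *Usp17lc* (3.80 to 28.6), 7.28 for *Tcstv1* (2.37 to 36.3), 4.0 for *Usp17le* (1.94 to 9.56) and 3.76 for *Usp17lb* (1.36 to 14.5). For *Zfp352* the interval reached below 1 (6.02, 0.936 to 253), and *Tcstv3*, with 6 counts over the group, could not be told from the level that 0 counts in ESCs allow. The ESC-ASC libraries were also the deepest, as given above, and the part of depth in this order was not tested. The study names more than 1 ESC line as the source of ESC-ASCs. Whether the ESC samples are of the same line was not given in the sources used here, so line and medium cannot be told apart.

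Replicates of ASCs agreed closely for some genes and less for others. The coefficient of variation of the level over the 3 ASC samples ran from 3.56% for *Usp17ld* to 29.4% for *Usp17la*, where counting alone would give 12.2% and 14.6%. ASC replicate 1 was the highest for 6 of the 10 genes, among them *Tmem92*, *Tcstv1* and *Usp17la*, whereas *Usp17lb* and *D13Ertd608e* were lowest there.

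All 10 genes passed the filter of the test, at least 10 counts in at least 3 samples. All 10 had that many counts in each of the 3 ASC samples, 6 would also have passed without these samples, and 4 passed through them alone. Their fitted differences between ASCs and ESC-ASCs, in edgeR's quasi-likelihood fit, were log2 4.14 ± 0.29 (SE) for *Tmem92*, 3.62 ± 0.35 for *Zfp352*, 5.06 ± 0.42 for *Tcstv3*, 2.99 ± 0.25 for *Tcstv1* and 2.69 ± 0.30 for *Usp17lc*, and the others lay between these. No p-value is given for them.

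The other genes of the two-cell burst were read from a list of 45, of which 41 were in the tables and 31 had enough counts to be tested. Of these 31, 29 were higher and 1 lower in ASCs than in ESCs (edgeR quasi-likelihood test, adjusted p below 0.05), where 26.4% of all genes tested were called higher and 23.9% lower. The median log2 fold change was 5.63, or 5.15 with the 3 genes that had no ESC count at their bound, against 0.02 over all genes. Without the filter, 35 of 41 were higher and 1 lower. Of the 31, 25 would have passed the filter without the ASC samples. The other 6 passed only because their ASC counts were high, so these counts and medians are a description of the list. The list, too, was put together with earlier results of these data known and is not independent evidence of its direction. Shared words were not measured between its genes. *Gm4027* and *BB287469*, named after their values were seen, had nearly the same counts in ASCs, 267, 281 and 252 against 259, 278 and 242. Fragments counted at several places may enter more than 1 gene, here and in the comparisons below, so the genes are not separate observations.

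By the size of the fitted change, the leading genes of the list were *Zscan4e*, *Gm12794*, *Zscan4b*, *Gm12800*, *Duxf3*, *Tdpoz3*, *Gm16429* and *Pramef25*. *Zscan4e* and *Zscan4b* encode zinc finger proteins of the cluster best known as a mark of this state. *Zscan4e* had 925, 805 and 810 counts in ASCs, 166, 140 and 157 in ESC-ASCs, 54, 47 and 46 in EpiLCs and 1, 3 and 3 in ESCs, and rose by log2 8.12 ± 0.34 (SE) from ESCs to ASCs (edgeR, adjusted p = 3.44e-12). *Zscan4b* had 734, 603 and 627 in ASCs and 1, 3 and 2 in ESCs. *Duxf3*, the gene for Dux itself, was far lower, with 19, 13 and 24 counts in ASCs, 1, 0 and 2 in ESC-ASCs, 1, 5 and 2 in EpiLCs and 0 in ESCs, AFSCs and EpiSCs.
ASCs were at least 15.1-fold above ESCs for *Duxf3* and at least 14.0-fold for *Tdpoz3*, which had 18, 12 and 22 counts in ASCs. With 0 counts in ESCs, the fitted change of both and so their place among the leading genes depend on the prior count of the fit. By these bounds alone they would stand below genes such as *Zscan4f*, named after its values were seen, whose ratio was 88.5 (67.0 to 119). *Gm16429* had 408, 307 and 329 counts in ASCs against 1, 1 and 3 in ESCs. The 3 remaining genes each had 1 count over the ESC samples, against 404 over the ASC samples for *Gm12794*, 366 for *Gm12800* and 248 for *Pramef25*, a member of the PRAME family.

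The list held exceptions to the higher level in ASCs. *Trim43a*, named after its values were seen, had 4, 7 and 6 counts in ASCs, 9, 12 and 8 in ESC-ASCs and 14, 24 and 36 in ESCs, and was lower in ASCs than in ESCs by log2 -2.41 ± 0.39 (edgeR, adjusted p = 1.18e-04). *Zfp750*, also named after its values were seen, did not pass (log2 -0.51 ± 0.21, adjusted p = 0.0513). With the replicate number as a block, or with any 1 AFSC sample left out of the fit, all 31 genes were called, 29 higher and 2, with *Zfp750*, lower. In both of these, unlike the 10 genes, ESC samples lay above ASC samples or among them.

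**Figure D4:**
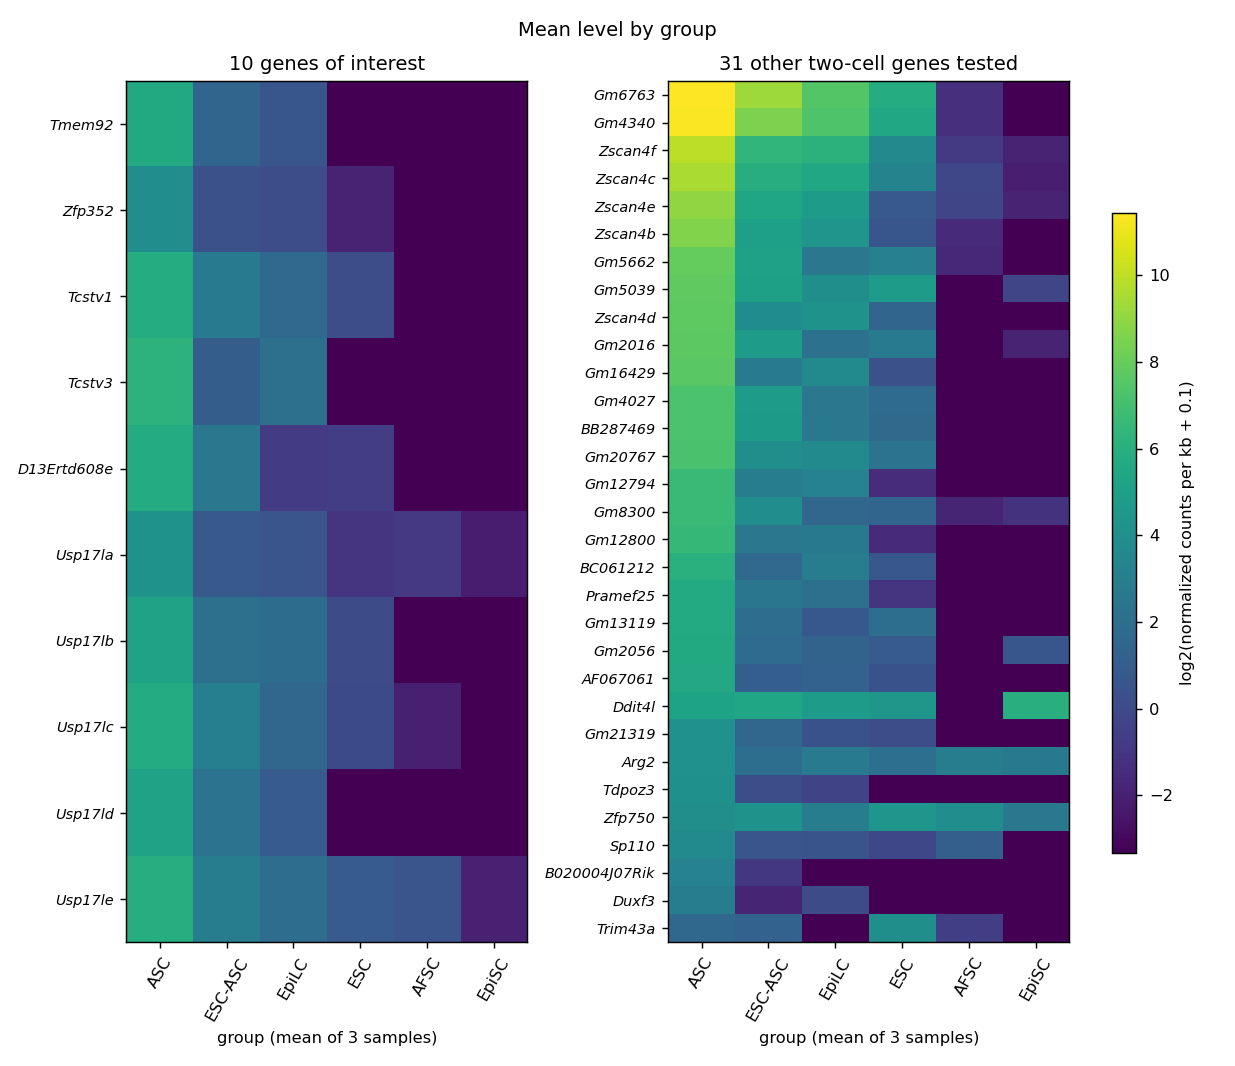
Mean level by group, as log2 of normalized counts per kb plus 0.1, of the 10 genes (left) and of the 31 other two-cell genes tested (right, sorted by the ASC mean). ASCs hold the brightest cell in all 10 rows on the left; on the right Trim43a, Zfp750 and Ddit4l are brighter in another group.

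The same list was set against the other groups, in comparisons that share the ASC samples. ASCs were higher for 30 of 31 genes and lower for 0 against EpiLCs (31.4% of all genes higher, 28.4% lower), for 30 and 0 against AFSCs (32.8% and 31.2%), for 30 and 1 against EpiSCs (35.9% and 30.7%) and for 28 and 0 against ESC-ASCs (27.7% and 23.0%). The median log2 fold change was 3.92 against EpiLCs and 3.25 against ESC-ASCs. It was 9.81 against AFSCs and 9.65 against EpiSCs, or 6.72 and 7.0 with the 19 and 21 genes at 0 there placed at their bound. At an unadjusted p below 0.05, 31 genes of the list passed against EpiLCs, 30 against AFSCs and 28 against ESC-ASCs. *Zscan4e* rose by log2 3.55 ± 0.22 from ESC-ASCs to ASCs (edgeR, adjusted p = 4.77e-10), within the range of the 10 genes in that comparison, and *Gm16429* by 4.90 ± 0.28 (adjusted p = 3.08e-09).

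Between ESC-ASCs and ESCs, 18 of 31 were higher and 1, *Trim43a*, was lower, where 30.6% of all genes were called higher and 29.6% lower. The median log2 fold change was 2.41, or 1.99 with the 2 genes at 0 in ESCs at their bound. *Zscan4e* rose by 4.57 ± 0.39 (edgeR, adjusted p = 9.55e-09) and *Zscan4b* by 4.38 ± 0.39. *Duxf3*, with 3 counts over the ESC-ASC samples and 0 in ESCs, was at the floor in both groups.

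Genes listed here as activators or repressors of two-cell genes showed no common direction between ASCs and ESCs or ESC-ASCs. Their part in the levels of the 10 genes was not tested. Of 10 listed activators, 8 were tested, and 4 were higher and 3 lower in ASCs than in ESCs, where 26.4% and 23.9% of all genes were. *Dppa2*, a chromatin protein that acts upstream of Dux, had 612, 834 and 828 counts in ASCs, 117, 196 and 197 in ESCs, 384, 363 and 385 in ESC-ASCs and at most 8 in AFSCs and EpiSCs, and rose by log2 1.82 ± 0.15 from ESCs to ASCs (edgeR, adjusted p = 1.21e-08). It was also higher in ASCs than in ESC-ASCs (2.10 ± 0.14, adjusted p = 1.75e-09), and ESC-ASCs did not pass against ESCs (-0.28 ± 0.15, adjusted p = 0.107). EpiLCs had 821, 960 and 827 counts of it. Its partner *Dppa4* rose by 0.92 ± 0.16 from ESCs to ASCs, and was at 1700, 1684 and 1664 counts in ESC-ASCs, where the difference from ASCs did not pass (-0.27 ± 0.16, adjusted p = 0.165).
The transcription factor gene *Gata2* was higher in ASCs than in ESCs (1.43 ± 0.23) but lower than in ESC-ASCs (-1.34 ± 0.21). *Zfp281*, whose place among the activators is uncertain, was higher in ASCs than in ESCs (0.56 ± 0.17). The nuclear receptor gene *Nr5a2* (-0.93 ± 0.16), *Trp53*, which encodes p53 (-0.88 ± 0.15), and *Yap1* (-0.86 ± 0.13) were lower in ASCs than in ESCs.

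Of 32 repressors, all tested, 7 were higher and 8 lower in ASCs than in ESCs, with a median log2 fold change of -0.23. These shares were near those over all genes, 26.4% higher and 23.9% lower, and so are no result about the repressors. The leading ones were *Dnmt3a*, a DNA methyltransferase (2.38 ± 0.17, edgeR adjusted p = 3.02e-09), the RNA-binding factor *Lin28a* (1.86 ± 0.16), *E2f6* (0.80 ± 0.22) and *Smchd1* (0.79 ± 0.14), which were higher, and the heterochromatin gene *Cbx3* (-0.93 ± 0.19), *Max* (-0.78 ± 0.15), *Ring1* (-0.75 ± 0.20) and the SUMO gene *Sumo2* (-0.72 ± 0.22), which were lower. Against ESC-ASCs, 5 of the 32 were higher and 7 lower in ASCs, and 3 of the 8 activators were higher and 1 lower, where 27.7% of all genes were higher and 23.0% lower. In that comparison *Lin28a* (-1.15 ± 0.16), *Sumo2* (-0.96 ± 0.22) and *Smchd1* (-0.79 ± 0.13) were lower in ASCs. Against AFSCs, 5 activators were higher in ASCs and 1 lower, with 16 repressors higher and 7 lower (all genes, 32.8% higher and 31.2% lower). The activators were 4 and 2 against EpiSCs and the repressors 9 and 13 (all genes, 35.9% and 30.7%). Against EpiLCs they were 2 and 3, and 9 and 14 (all genes, 31.4% and 28.4%).

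Genes next to the 10 were compared as well, since position had no part in the choice. Within 100 kb of them lay 47 other annotated genes, of which 7 had enough counts to be tested and 5 would have had them without the ASC samples. The 27 olfactory receptor genes among them had at most 1 count each over all 18 samples, while the *Usp17l* copies between them reached 135 counts in 1 ASC sample. Of the 7 tested, 5 were higher and 1 lower in ASCs than in ESCs, where 26.4% of all genes were higher and 23.9% lower. *AF067061* and *BC147527* had at most 6 counts in any sample outside ASCs and passed the filter through the ASC samples alone. Both are among the 5, so this tally is a description, and neither gene is given a p-value.
Around the *Tcstv* genes, *AF067061*, which also stands in the list of other two-cell genes, had 42, 71 and 78 counts in ASCs, 6, 6 and 5 in ESC-ASCs and 2, 1 and 0 in ESCs, and rose by log2 5.53 ± 0.57 from ESCs. *Gm21761*, 17310 bp from *Tcstv1*, had 160, 184 and 151 in ASCs, 20, 19 and 28 in ESC-ASCs and 1, 5 and 5 in ESCs (5.14 ± 0.30, edgeR adjusted p = 4.17e-09). *BC147527*, 8918 bp from *Tcstv3*, had 17, 23 and 18 in ASCs, 6, 2 and 4 in ESC-ASCs and 0, 1 and 1 in ESCs (4.36 ± 0.59). *Gm21761* and *AF067061* share 50-base words with the *Tcstv* genes, at most 10.1% of the words of *Tcstv3*, so some of their fragments can be the same.
*B020031M17Rik* had 109, 139 and 160 counts in ASCs, 37, 39 and 25 in ESC-ASCs and 14, 21 and 21 in ESCs, and rose by 2.52 ± 0.30 from ESCs (edgeR, adjusted p = 6.49e-06). In this gene ESC-ASCs did not pass against ESCs (-0.58 ± 0.33, adjusted p = 0.139). *Zfp131*, 45201 bp from *D13Ertd608e*, was lower in ASCs (-0.95 ± 0.24, adjusted p = 3.49e-03), with 258, 191 and 191 counts against 303, 314 and 321 in ESCs. Near *Tmem92*, *Xylt2*, which encodes a xylosyltransferase, was higher in ASCs than in ESCs (0.87 ± 0.22) and than in ESC-ASCs (1.34 ± 0.22). Against ESC-ASCs, 5 of the 7 neighbours were higher in ASCs and 0 lower (5 at an unadjusted p below 0.05), where 27.7% of all genes were higher and 23.0% lower. *AF067061* and *BC147527* were again among the 5, so this too is a description.

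The 10 genes resembled each other over the 18 samples. The correlation of a gene's log2 level with the mean profile of the other 9 was between 0.842 for *Usp17la* and 0.979 for *Tmem92* (Pearson's r over 18 samples in 6 groups, a description, since samples of a group are not independent points and copies share fragments). Among the 16891 other genes, ranked by the same measure against the mean of all 10, the median r was 0.0649 and 92 genes lay above 0.9, 18 of them from the list of other two-cell genes. The 10 most alike were *Lmx1a* (0.968), *Gm12794*, *Zscan4b*, *Ace*, *Gm13040*, *Gm13057*, *Gm13043*, *Tmem132c*, *BC080695* and *Gm45899* (0.961), of which *Gm12794* and *Zscan4b* were on the list.
*Lmx1a*, a homeobox gene, was at 7.27 ± 1.86 normalized counts per kb in ASCs, 1.33 ± 0.462 in ESC-ASCs, 0.716 ± 0.214 in EpiLCs, 0.307 ± 0.291 in ESCs and 0 in AFSCs and EpiSCs (SD, n = 3). *Ace*, the angiotensin-converting enzyme gene, was at 37.9 ± 2.19 in ASCs, 8.54 ± 1.12 in ESC-ASCs and 0.699 ± 0.283 in ESCs, and *Tmem132c* at 19.4 ± 3.09, 4.04 ± 0.163 and 0.130 ± 0.113. *Gm13040*, *Gm13043*, *Gm13057* and *BC080695* lie together on chromosome 4 (chr4:143511343-143573798), the last of them over *Gm13057*, and had nearly one profile, at 228 ± 75.3 in ASCs and 23.1 ± 1.86 in ESC-ASCs for *Gm13040*.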

How the data were processed

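RNA-seq of 18 samples was analysed, 3 replicates in each of 6 groups named by the labels. Per the labels, total RNA was enriched for polyA and made into directional libraries. The authors aligned the read pairs with TopHat2 (1 mismatch allowed, GRCm38) and deposited whole fragment counts for each gene of Ensembl release 86 (featureCounts 1.5.0-p1, exons). Per the file headers, both ends had to map, an overlap of 10 bp was enough, a fragment that mapped to several places was counted at each, and strand was not used. The tables also give each gene's exonic length, which was used to scale levels. Of 35773 gene IDs, 35514 were paired with a symbol. The headers of the ESC-ASC tables name another alignment (mSQ) than the table names do, and the labels were followed.

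For levels, each count was divided by the sample's size factor (DESeq2 1.42.0) and by the gene's exonic kb, with 0.1 added where a log2 was taken. A group at 0 was given a floor of 3 counts over its 3 samples, and ratios carry exact (Clopper-Pearson) 95% intervals. The 16901 genes with 10 counts or more in 3 samples or more were tested with edgeR 4.0.16 in R 4.3.3 (limma 3.58.1), by the quasi-likelihood F test with TMM and robust estimation over all 18 samples and Benjamini-Hochberg adjustment over all genes tested (adjusted p below 0.05). The fit was tested on simulated data. Alternatives were size factors in place of TMM, the DESeq2 Wald test, no filter, a stricter filter, the replicate number as a block, only the groups compared, and each sample left out with the tested genes kept. Other tools were Python 3.11.15, numpy 2.4.6, pandas 2.3.3, scipy 1.17.1 and matplotlib 3.10.9. Transcripts came from GENCODE M21 and upstream sequences from RefSeq (GRCm38.p6).

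The 10 genes and the other gene lists were chosen with earlier results of these data known, so the levels of the 10 genes were described and not tested. Named genes were the 10 genes, up to 8 called genes per list with the largest change between ASCs and ESCs, up to 6 called neighbours within 100 kb, and the 10 genes most like the 10 in profile. Apart from the cell type markers, genes named outside this rule are said to have been chosen after their values were seen.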

Additional observations from a re-analysis of the deposited data

How the results depend on the processing

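The order of the 10 genes, with all ASC samples above every other sample, held for 10 of 10 with TMM-scaled library sizes, with CPM, and when any 1 of the 18 samples was omitted. With a pseudocount of 1 or CPM, 4 of the 120 recomputed differences of single genes between ASCs and ESC-ASCs moved by more than the spread between replicates, and none changed sign. The counts of genes stayed within 1.5 times the value given under 258 of 260 alternatives. The 2 others concern the neighbours called between ASCs and ESC-ASCs (5 of 7), which were 8 of 14 with no filter on low counts and 3 of 5 with the stricter filter (10 counts or more in 6 samples or more), because other genes are then tested. Leaving out 1 sample, with the tested genes kept, gave 30 to 31 other two-cell genes called between ASCs and ESCs, 29 to 31 against EpiLCs, 29 to 30 against AFSCs, 31 against EpiSCs, 28 against ESC-ASCs and 19 to 20 between ESC-ASCs and ESCs. For the listed activators and repressors together it gave 17 to 23 against ESCs and 13 to 18 against ESC-ASCs. Replicate numbers paired the samples only loosely: deviations of same-numbered samples correlated at 0.0808 on average (-0.206 to 0.46 over 45 pairs). Those of differently numbered samples correlated at -0.0383 (-0.387 to 0.326 over 90 pairs), and 8 of 18 samples correlated best with their own number. Whether samples of 1 number share a batch was not tested. With the replicate number as a block, 31 other two-cell genes were called between ASCs and ESCs in place of 30, and the fold changes of the 10 genes between ASCs and ESC-ASCs moved by at most 0.0419 on the log2 scale. Depth limits the low groups: with 0 to 4 counts per sample in ESCs, AFSCs and EpiSCs, the genes could not be ranked there.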

Other observations

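*Gm4340* and *Gm6763*, 2 of the other two-cell genes with the most counts, were chosen after their values were seen. *Gm4340* had 808, 612 and 1471 counts in the 3 ESC-ASC samples and *Gm6763* 899, 688 and 3081, so that 1 sample stood well above the other 2. Of the 10 genes followed above, 4 were highest in level in that sample (replicate 3) and 6 in replicate 1. *Usp17lc* had 48 counts there against 37 and 36, *Tmem92* 10 against 15 and 11, and *Usp17le* 19 against 45 and 21. In ASCs both genes were at 2881 to 3545 counts in every sample.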
